A study of Mus musculus with 9 samples.

Results

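During the conversion of mouse fibroblasts to induced pluripotent stem cells (iPSCs), 1240 regions of the genome carried an ATAC-Seq peak in the starting cells and in the iPSCs but none in the Thy-1- cells of day 6. They were chosen by the peak calls themselves. Overlapping peaks of the 7 time-course libraries were merged on chromosomes 1 to 19 into 204843 regions, and a region counted as present in a library when a peak overlapped it by at least 1 bp. Of these, 20852 were present in D0 and in iPSCs, and the 1240 regions had no peak of D6T-, the library with the most peaks. They made up 5.95% (95% Wilson interval 5.63 to 6.28) of the D0 and iPSC regions and 0.605% of all regions. The D0, D6T- and iPSC calls are therefore a description of how the regions were found and no result. The intervals given here cover the sampling of regions only.

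Mouse embryonic fibroblasts (MEFs), which carried an EGFP cassette at Oct4, were infected with pMXs retroviruses for Sox2, Klf4, Oct4 and c-Myc (OSKM). All groups share this origin, including the iPSCs. The time course held D0 and D3 (days 0 and 3, not sorted), D6T- and D9T- (days 6 and 9, sorted as Thy-1-), D12S+ and D16S+ (days 12 and 16, sorted as SSEA-1+) and the fully reprogrammed iPSCs, which were not sorted. A further pair of libraries, D6 siNT and D6 siH3.3, came from Thy-1- cells of day 6 after a non-targeting siRNA or siRNA against the histone variant H3.3. Each condition had 1 library and no replicate, so no difference could be set against the spread between replicates and no test was made. The D6T- cells differ from D0 and D3 in time and in sorting, which cannot be told apart. In a bulk library, fewer cells with an open region and less opening per cell cannot be told apart either.

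ATAC-Seq maps DNA that a transposase can reach, which in most cells means active promoters, enhancers and sites of bound factors freed of nucleosomes. During reprogramming, elements of the fibroblast programme close and elements of the pluripotency programme open, partly by way of transient openings seen only in intermediate cells. Promoters rich in the dinucleotide CG tend to stay accessible in all cell types, whereas CG-poor elements within genes and between genes vary more.

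Sequences of 6 regions show the kinds of DNA found among the 1240. Each is the + strand of mm9 over 300 bases around the stronger of the D0 and iPSC summits (the point of highest signal in a peak), with every CG in capitals. Cbx7 is the strongest region at the promoter of a gene of known function, Thy1, Igf2 and Esrrb belong to the fibroblast, imprinted and pluripotency genes, Jag2 is 1 of 8 regions in a single gene, and Gm2792 stands for repeated sequence. The Cbx7 window lay at chr15:79804244-79804543, upstream of the gene, and the Thy1 window at chr9:43851126-43851425, upstream and next to the transcription start site (TSS). The Igf2 window lay at chr7:149846460-149846759, upstream of a TSS of Igf2 and inside an exon of the antisense transcript Igf2as. The Esrrb window lay at chr12:87736301-87736600 in an intron, and the Jag2 window at chr12:114158200-114158499, which holds coding exon and intron. The Gm2792 window at chr17:6524473-6524772 was intronic.
Cbx7: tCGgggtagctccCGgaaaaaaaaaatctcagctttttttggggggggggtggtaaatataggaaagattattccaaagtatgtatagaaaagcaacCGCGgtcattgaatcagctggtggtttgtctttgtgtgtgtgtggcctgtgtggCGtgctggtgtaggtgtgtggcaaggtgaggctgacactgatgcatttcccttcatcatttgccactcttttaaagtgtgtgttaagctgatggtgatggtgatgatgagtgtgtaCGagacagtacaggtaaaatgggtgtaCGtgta
Thy1: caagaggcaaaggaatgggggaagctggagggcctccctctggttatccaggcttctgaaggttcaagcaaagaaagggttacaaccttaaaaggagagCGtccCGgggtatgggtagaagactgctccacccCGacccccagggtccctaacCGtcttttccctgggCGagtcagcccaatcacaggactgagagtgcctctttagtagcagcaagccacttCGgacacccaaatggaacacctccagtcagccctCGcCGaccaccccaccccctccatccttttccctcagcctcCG
Igf2: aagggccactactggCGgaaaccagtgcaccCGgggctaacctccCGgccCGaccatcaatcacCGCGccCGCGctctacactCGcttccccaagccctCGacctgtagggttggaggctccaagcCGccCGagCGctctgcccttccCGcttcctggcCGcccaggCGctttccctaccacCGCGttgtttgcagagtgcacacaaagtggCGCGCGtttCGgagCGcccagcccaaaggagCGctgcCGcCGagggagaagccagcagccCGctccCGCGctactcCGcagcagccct
Esrrb: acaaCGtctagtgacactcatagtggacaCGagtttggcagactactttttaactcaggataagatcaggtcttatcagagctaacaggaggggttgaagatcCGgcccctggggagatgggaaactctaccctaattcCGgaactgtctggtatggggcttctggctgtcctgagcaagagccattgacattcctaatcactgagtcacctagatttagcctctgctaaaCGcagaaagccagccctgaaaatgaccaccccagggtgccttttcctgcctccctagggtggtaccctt
Jag2: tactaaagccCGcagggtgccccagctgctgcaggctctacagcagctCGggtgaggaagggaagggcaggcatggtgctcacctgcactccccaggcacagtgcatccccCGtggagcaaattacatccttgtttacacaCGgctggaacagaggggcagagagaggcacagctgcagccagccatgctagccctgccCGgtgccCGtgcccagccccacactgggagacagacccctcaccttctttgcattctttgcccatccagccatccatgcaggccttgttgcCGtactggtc
Gm2792: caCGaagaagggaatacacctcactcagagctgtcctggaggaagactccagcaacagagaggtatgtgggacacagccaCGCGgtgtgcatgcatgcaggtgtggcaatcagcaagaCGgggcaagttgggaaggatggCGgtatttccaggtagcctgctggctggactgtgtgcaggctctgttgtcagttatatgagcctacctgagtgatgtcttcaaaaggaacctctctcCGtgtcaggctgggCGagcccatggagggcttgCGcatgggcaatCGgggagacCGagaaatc

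The Igf2 window held 30 CG and the other 5 windows between 5 and 10. All stretches of 31 bases (31-mers) of the Gm2792 window occurred elsewhere in the genome, with a median of 3 copies. The Cbx7 window had a match to the AP-1 motif (tgaatca, bases 107 to 113), and the Esrrb window matched AP-1 (tgagtca, bases 203 to 209) and TEAD (cattcc, bases 190 to 195). The Thy1 window matched TEAD on the reverse strand (bases 12 to 17) and NFY (ccaat, bases 178 to 182). Such matches are letters and not measured binding.

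The libraries held between 13213117 (D9T-) and 31714845 (D0) tags, and D6T- held 21390800. Peaks, with their summits joined, numbered 81364 in D0, 133132 in D6T- and 61615 in iPSCs. Signal is given as CPM, here the extended tags at a summit per 1000000 tags of the library. The lowest signal called was 0.347 CPM in D0 (11 tags), 0.374 in D6T- (8 tags) and 0.376 in iPSCs (10 tags), and the other libraries lay between 0.331 and 0.530. A weaker opening was not detectable in the respective library. The promoters of Nanog and Zfp42, both pluripotency genes, had a peak in D12S+, D16S+ and iPSCs and in no other library. All 8 pluripotency promoters examined had a peak in iPSCs, against 4 in D0. Of 8 fibroblast promoters, 6 had a peak in D0, 7 in D6T- and 4 in iPSCs.

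The 1240 regions were weak in both end points. Their median signal, the highest pileup of tags in the region, was 0.473 CPM in D0 (quartiles 0.410 to 0.536, highest 1.58) and 0.527 in iPSCs (quartiles 0.451 to 0.602, highest 1.77). This was a median of 15 tags in D0 and 14 tags in iPSCs. The 19612 D0 and iPSC regions that D6T- shared had medians of 0.725 and 0.828, which was 1.53 and 1.57 times higher. In D6T- itself those shared regions reached a median of 2.34. The weaker of the D0 and iPSC signals had a median of 0.441 in the 1240 regions, a level that would come to 9.44 tags in D6T-, where the lowest call rested on 8. For 81 regions (6.53%) that level lay below the lowest D6T- call. At least 2 times the lowest D6T- level (0.748) was reached in both end points by 13 regions (1.05%) and by 37.0% of the shared regions. Signal in iPSCs was the higher in 797 regions and signal in D0 in 443, with a median log2 ratio of iPSCs to D0 of 0.15 (quartiles -0.12 to 0.44).

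**Figure D1:**
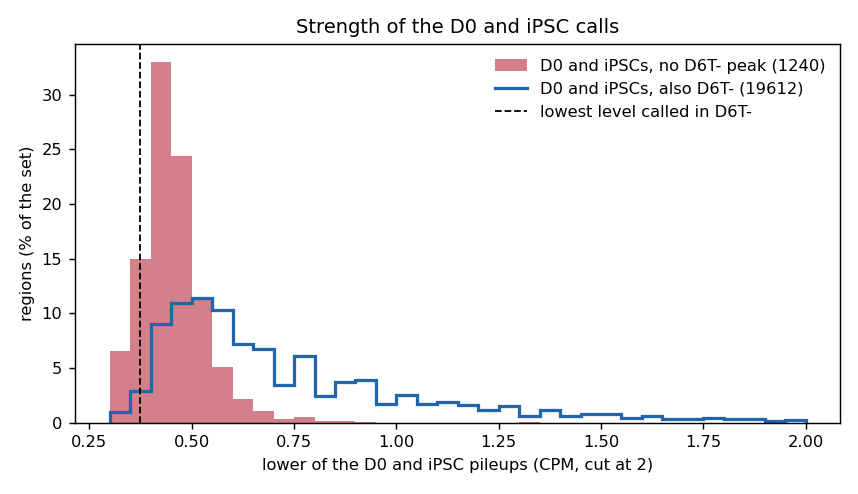
Signal of D0 and iPSC regions. The x axis gives the lower of the D0 and iPSC pileups in CPM, up to 2, and the y axis the percent of the 1240 regions with no D6T- peak (filled) or of the 19612 regions that D6T- shared (line). The dashed line marks 0.374, the lowest level called in D6T-. Most of the 1240 regions lie close to this line, with a median of 0.441.

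The share that lacked a D6T- peak fell with signal. Among D0 and iPSC regions whose lower signal was under 0.45 CPM, 676 of 3200 (21.1%) had no D6T- peak. The share was 9.21% between 0.45 and 0.55, 2.55% between 0.55 and 0.65 and 0.742% between 0.65 and 0.8. Among the 6075 regions at 0.8 or more, 6 (0.0988%) lacked one. The membership also rested on which peaks were counted. When each library kept only the 50% of its peaks with the best q-values, 423 regions followed the same rule, of which 80 overlapped any of the 1240. When each library kept its best 36708 peaks, the number in D9T-, 1285 regions did so, and 89 of them (6.93%) overlapped any of the 1240. Thus the number was similar but the regions were mostly others. How far signal alone decided the missing call was not tested.

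Some regions lay close to the edge of the rule, on either side of it. A region near Gm3828 (chr10:80410530-80411158) lay 59 bp from the nearest D6T- peak, Pdlim2 60 bp and Dos 64 bp, and 78 of the 1240 regions lay within 500 bp of one. The median gap was 4728 bp. Just outside, D6T- peaks shared 11 bases with the span of the strongest D0 and iPSC peaks near AB041806, 25 bases near Gm17032 and 27 bases near Epha8. In 15 further regions with peaks of D0, iPSCs and D6T-, no D6T- base fell within that span. Conversely, the strongest D0 peak and the strongest iPSC peak overlapped directly in 1141 of the 1240 regions (92.0%). In the other 99 these peaks shared no base, and overlaps of weaker peaks in a region were not counted.

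Next, the regions were followed in the libraries that the rule had not used. On day 3, 615 regions (49.6%, interval 46.8 to 52.4) had a peak, against 48.6% of all merged regions. In D9T-, 41 regions (3.31%, 2.45 to 4.45) had one, against 16.1% of all regions. In D12S+ the number was 259 (20.9%, 18.7 to 23.2) against 25.1%, and in D16S+ 341 (27.5%, 25.1 to 30.1) against 22.2%. The day 3 share was thus near the background, the D9T- share was below it, and those of the late SSEA-1+ cells lay a few percentage points to either side. The 19612 regions that D6T- shared were called far more often, in 96.5% in D3, 71.3% in D9T-, 91.8% in D12S+ and 86.9% in D16S+. Regions of D0 that were missing from D6T- and iPSCs were called in 13.4% in D3 and in 0.173%, 0.695% and 1.01% in D9T-, D12S+ and D16S+. Regions of iPSCs missing from D0 and D6T- were called in 11.7%, 0.905%, 20.8% and 32.8%. With 36708 peaks in each library, a set of mostly other regions followed the rule, and D3 called 42.7% of it, D9T- 32.1%, D12S+ 57.2% and D16S+ 60.7%. With all peaks, the 1240 regions lay above both of these groups on day 3 and, compared with the iPSC regions, at their level in D12S+ and below it in D16S+.

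**Figure D2:**
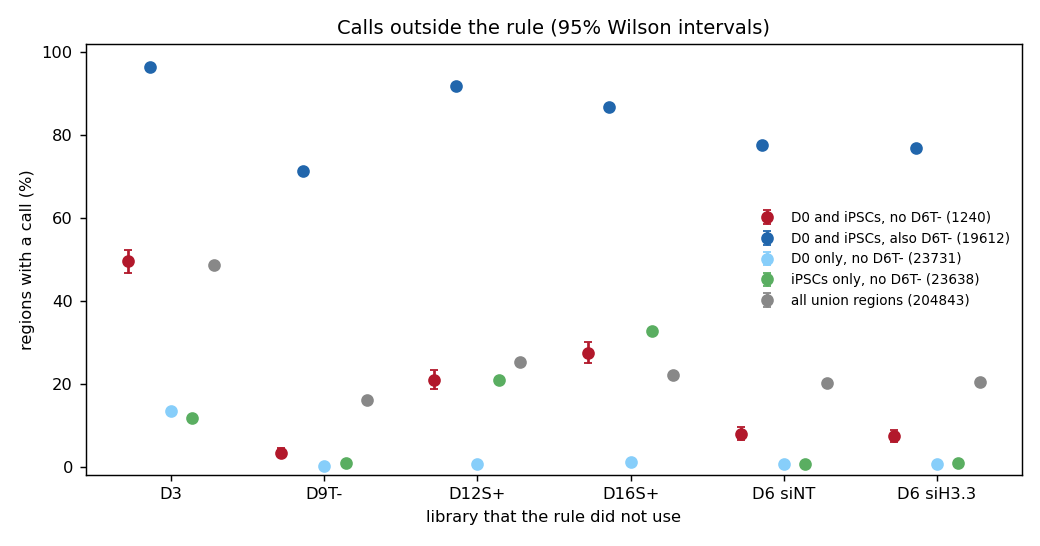
Calls in the 6 libraries that did not enter the rule. The y axis gives the percent of regions with a peak and the x axis the library, with points for the 1240 regions, the 19612 regions that D6T- shared, regions of D0 only or iPSCs only without D6T-, and all 204843 regions. Bars are 95% Wilson intervals. The 1240 regions fall from 49.6% in D3 to 3.31% in D9T- and stand at 20.9% and 27.5% in D12S+ and D16S+.

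The courses of single regions were set beside those of all merged regions, by the calls outside the rule. No time-course library besides D0 and iPSCs called 457 regions (36.9%), and 39% of all regions had no call in D3, D9T-, D12S+ and D16S+. None of the 6 libraries outside the rule called 445 (35.9%), against 36.4% of all regions. A peak in D3 and in none of D9T-, D12S+ and D16S+ was seen in 365 regions (29.4%), against 25.9% of all. At least 1 of these 3 later libraries called 418 regions (33.7%), against 35% of all, most often D3, D12S+ and D16S+ together (101 regions) or D3 and D16S+ (85 regions). These shares were within a few percentage points of the background. Only 41 of the 418 had a D9T- peak, the library with the fewest tags. All of D3, D9T-, D12S+ and D16S+ called 25 regions (2.02%), against 8.16% of all, and all 6 libraries outside the rule called 19 (1.53%), against 7.12% of all. Among the regions that D6T- shared, the latter were 66.8% and 61.5%, and 1.09% had no call in D3, D9T-, D12S+ and D16S+.

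The day 6 siRNA libraries, made from Thy-1- cells as D6T- was, gave a second reading of day 6. D6 siNT called 97 of the 1240 regions (7.82%, 6.45 to 9.45), against 20.1% of all regions, and D6 siH3.3 called 91 (7.34%, 6.02 to 8.93), against 20.4%. Neither of them called 1105 regions (89.1%, 87.3 to 90.7), whereas neither called 75.3% of all regions and 16.5% of the regions that D6T- shared. The difference between the siNT and siH3.3 shares was within their intervals. Of all regions, 61.9% had a D6T- peak. Of D0 regions missing from D6T- and iPSCs, D6 siNT called 0.565%, D6 siH3.3 0.598% and neither 99.0%. Of iPSC regions missing from D0 and D6T-, the shares were 0.575%, 0.749% and 98.8%. The 1240 regions were thus called more often than both of these groups and less often than all regions. With 36708 peaks in each library, D6 siNT called 32.9%, D6 siH3.3 called 30.2% and neither called 56.3% of the regions that then followed the rule. By signal, D6 siNT called 3.40% of the 1240 regions and 47.0% of the shared ones under 0.45 CPM, 7.21% and 59.6% between 0.45 and 0.55, and 23.3% and 73.9% between 0.55 and 0.65. The gap to the shared regions was smaller only above this, at 62.5% and 89.5% between 0.65 and 0.8, where 24 of the 1240 regions lay, and in the 6 regions at 0.8 or more, which were all called. Thus the stronger the region in D0 and iPSCs, the more often day 6 cells of the siRNA experiment had a peak there. Repeated sequence moved in the same direction, from 4.14% of the 1240 regions under 0.45 to 24.4% between 0.55 and 0.65 and 37.5% between 0.65 and 0.8, and its part was not tested. Of the 13 regions at 2 times the lowest D6T- level, D6 siNT called 76.9% and D6 siH3.3 called 69.2%.

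The missing call was not confined to D6T-. Of the 20852 D0 and iPSC regions, 6.34% lacked a peak in D3, 5.95% in D6T-, 12.5% in D12S+, 16.6% in D16S+, 26.6% in D6 siNT, 27.3% in D6 siH3.3 and 32.7% in D9T-. D6T- had the lowest of these shares and also the most peaks. With 36708 peaks in each library, the shares were 8.50% in D3, 10.8% in D6T-, 13.8% in D9T- and 6.74% in D12S+, so that the order changed.

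Base composition of the surrounding DNA moved with the missing call. Among D0 and iPSC regions with a GC content under 42% within 10 kb on each side, 77 of 2542 (3.03%) had no D6T- peak. The share was 1.73% at 42 to 46%, 3.93% at 46 to 50%, 11.1% at 50 to 54% and 27.9% (294 of 1053) at 54% or more. Weak regions (lower signal under 0.55) went from 7.53% in the lowest class through 4.23% to 45.7% in the highest. The same direction was seen in libraries outside the rule. From the lowest to the highest GC class, regions without a peak went from 4.48% to 12.3% in D3, from 16.9% to 59.6% in D9T-, from 6.22% to 36.8% in D12S+, from 7.55% to 38.8% in D16S+, from 13.7% to 53.8% in D6 siNT and from 13.3% to 57.1% in D6 siH3.3. Signal was also lower where GC was higher, with a median of the weaker end point of 0.694 in the lowest class and 0.527 in the highest. Whether GC content changed how well the libraries recovered such DNA was not tested.

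**Figure D3:**
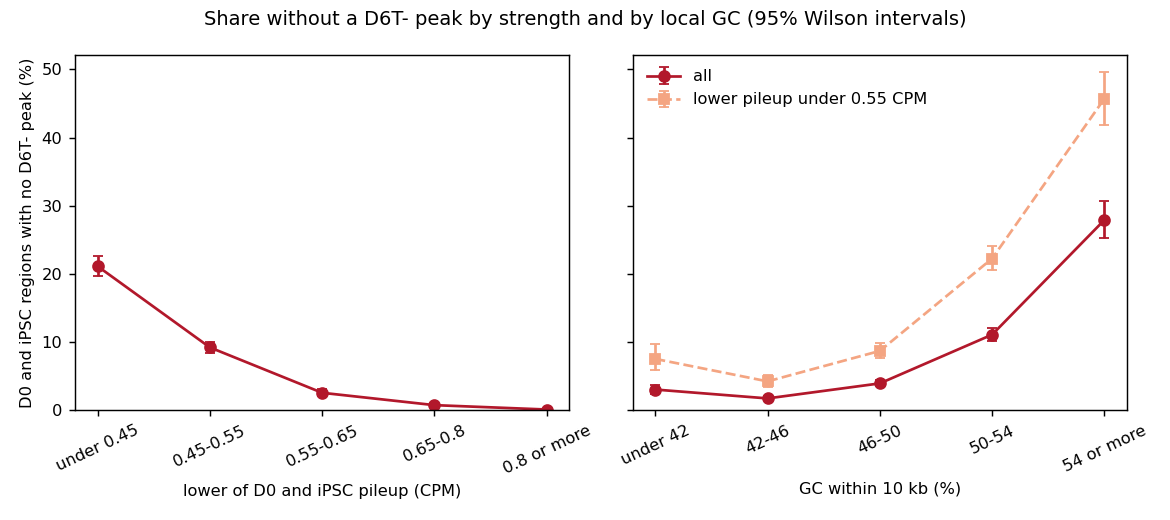
Share of D0 and iPSC regions with no D6T- peak (y axis, percent, with 95% Wilson intervals). Left, by the lower of the D0 and iPSC pileups in CPM, the share falls from 21.1% to 0.0988%. Right, by the GC content within 10 kb on each side, it rises to 27.9% in all regions (solid line) and to 45.7% in regions with a pileup under 0.55 CPM (dashed line).

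The regions lay mostly within genes. By the position of their midpoint, 58.0% were in a genebody, 18.6% (16.6 to 20.9) in a promoter (up to 3 kb upstream of a TSS) and 23.4% intergenic. All merged regions had 47.6%, 13.6% and 38.9%, and the regions that D6T- shared had 41.0%, 38.7% and 20.3%. The summit fell in an intron in 652 regions (52.6%), in a coding exon in 154 (12.4%), in an untranslated exon part in 57 and in an exon of a noncoding transcript in 29. The median distance from the midpoint to the nearest TSS was 6650.5 bp, against 382 bp for the shared and 12887 bp for all regions. The median width was 522 bp, between that of all regions (365 bp) and of the shared ones (1022 bp).

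The surroundings were dense in D0 peaks. Within 50 kb on each side, a median of 15 D0 peaks, 9 D6T- peaks and 11 iPSC peaks was counted, against 7, 10 and 6 around the shared regions. D0 peaks outnumbered D6T- peaks around 877 of the 1240 regions (70.7%) and around 3762 of the 19612 shared regions (19.2%). Each count includes the peaks of the region itself, which the rule fixed, so the rule favours this contrast. Around D0 regions missing from D6T- and iPSCs, the medians were 11 D0, 6 D6T- and 5 iPSC peaks. Around iPSC regions missing from D0 and D6T-, they were 5, 8 and 6. Median GC content within 10 kb on each side was 51.5%, against 46.8% for the shared and 45.3% for all regions. It was 49.3% for the D0 regions missing from D6T- and iPSCs and 46.6% for the iPSC regions missing from D0 and D6T-. In a window of 1 Mb, a median of 20 genes was annotated, against 15 around the shared regions.

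With a distance of at most 50 kb, 600 regions (48.4%) had another of the 1240 beside them, and 29 clusters held 5 or more. Clustering was not counted for any other set of regions, so whether this share is particular to the 1240 was not tested. By chromosome, the share of D0 and iPSC regions without a D6T- peak was highest on chromosome 4 (155 of 1589, 9.75%) and chromosome 17 (101 of 1094, 9.23%), and lowest on chromosome 13 (15 of 742, 2.02%). The largest cluster, 10 regions over 90365 bp in Gm2792 and Tmem181b-ps on chromosome 17, consisted of repeated sequence throughout. D6 siNT called 7 of these 10. A cluster of 9 regions around Llgl2, Recql5, Caskin2 and Myo15b on chromosome 11 held none that was repeated, and D6 siNT called 0 of them.

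In all, 709 of 21281 protein-coding genes (3.33%) had a region in their promoter or body. A single region was found in 567 of them, and 5 or more in 14. The most were in Gm20388, an annotated gene of 4434882 bp with 15 regions, and in Gm2792 with 11, which lay in repeated sequence in part. Jag2, which encodes a Notch ligand, had 8 regions within 20906 bp of gene, and Rbfox3, a neuronal splicing factor, had 9 within 421838 bp. Kif26a had 6. Among the genes with 5 were Apc2, Bai1, Cacna2d2, Dtx1 (a Notch pathway regulator), Itpk1, Lmx1b and Nrxn2.

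The regions of Jag2 stood close together. The 8 regions lay between 114147325 and 114165926 on chromosome 12, and no D6T- peak fell within this span of 18602 bp. In D0 their signals were 0.473, 0.694, 0.473, 0.410, 0.662, 0.599, 0.473 and 0.378 CPM in genomic order. The iPSC signals in the same order were 0.489, 0.451, 0.602, 0.376, 0.451, 0.602, 0.527 and 0.414. Day 3 called all 8, at 0.364 to 0.595 CPM, and D9T-, D12S+, D16S+ and both siRNA libraries called none. The promoter of Jag2 behaved otherwise, for it had no D0 peak but one of 0.728 in D3, 0.841 in D6T-, 0.681 in D9T-, 1.36 in D12S+, 2.03 in D16S+, 1.02 in iPSCs, 0.413 in D6 siNT and 0.482 in D6 siH3.3. All 8 regions were faint, at most 22 tags in D0, in DNA with a median GC content of 57.7%.

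Polycomb and methylation genes were among the genes of chromatin repression, a list of which 2 of 26 had a region (Cbx7 and Dnmt3a). This was 7.69% (2.14 to 24.1), against 3.33% of protein-coding genes. The region upstream of Cbx7, a chromobox subunit of Polycomb repressive complex 1, was the strongest at the promoter of a gene of known function. Its midpoint lay 2846 bp from the nearest TSS, within the 3 kb upstream. Signal was 1.01 CPM in D0, 2.22 in D3, 0.852 in D12S+, 1.28 in D16S+ and 0.828 in iPSCs, and no peak was called in D6T- or D9T-. Unlike D6T-, D6 siNT (0.780) and D6 siH3.3 (1.39) did call it. The nearest D6T- peak was 10055 bp away, and in the whole Cbx7 locus 9 of 23 regions had a D6T- peak. None of its 31-mers was repeated. The region of Dnmt3a, a de novo DNA methyltransferase, counted as promoter but had its summit in an intron. The TSS nearest to its midpoint, at 667 bp, was that of AC159324.1. The values were 0.410 in D0, 0.625 in D12S+, 0.567 in D16S+ and 0.677 in iPSCs, with no other call. The region at the start of the annotated Dnmt3a gene was called in all 9 libraries, with 2.29 in D6T-. A D6T- peak of 0.748 lay 677 bp from the intron region.

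The fibroblast list had a region at 2 of 39 genes (5.13%, 1.42 to 16.9), Thy1 and Col6a2, against 3.33% of protein-coding genes. Thy1 encodes the surface protein on which the day 6 and day 9 cells were sorted. Its promoter region (chr9:43851111-43851925, midpoint 51 bp from the nearest TSS) had 0.410 CPM in D0, 0.562 in D3, 0.625 in D12S+, 0.567 in D16S+ and 0.489 in iPSCs. No peak was called in D6T-, D9T-, D6 siNT or D6 siH3.3. The region was thus called in the 5 libraries not sorted on Thy-1 and in none of the 4 sorted as Thy-1-. The paper's cell counts list SSEA-1+ cells as Thy-1-, so this division is by sorting and not by Thy-1 state. Its counts were low, from 11 to 17 tags. The same division was found in 71 of the 1240 regions (5.73%), of which 25.4% lay in promoters and 18.3% were rich in CG. As the rule fixed the D0, D6T- and iPSC calls, the share is read over the other 6 libraries, where 5.52% of the shared regions and 2.16% of all regions had the same calls. It was thus near that of the shared regions. In Col6a2, a collagen VI chain, an intron region had 0.441 in D0, 0.364 in D3 and 0.527 in iPSCs.

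Among the pluripotency genes, 2 of 32 (6.25%, 1.73 to 20.1) had a region, Esrrb and Fgf4, against 3.33% of protein-coding genes. Esrrb encodes an orphan nuclear receptor of the pluripotency network. The region in its intron, with the midpoint 26000 bp from the nearest TSS, had 0.410 CPM in D0, 0.463 in D3, 0.738 in D12S+, 0.661 in D16S+ and 0.828 in iPSCs. It had no call in any of the 4 libraries sorted as Thy-1-. In the Esrrb locus 42 regions were found, and D6T- called 11 of them, against 18 in D0, 17 in D3 and 19 in iPSCs. Fewer were called in D9T- (1), D12S+ (8), D16S+ (10), D6 siNT (3) and D6 siH3.3 (1). Fgf4, a growth factor secreted by pluripotent cells, had an intron region of 0.441 in D0, 0.331 in D3 and 0.602 in iPSCs. Of the 5 regions of the Fgf4 locus, D0 and D16S+ called 1 each, D3 and D12S+ 2 each and iPSCs 4. D6T-, D9T-, D6 siNT and D6 siH3.3 called none.

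Imprinted genes had a region at 2 of 32 genes (6.25%, 1.73 to 20.1), Igf2 and Kcnq1, against 3.33% of protein-coding genes. Igf2 encodes a growth factor expressed from the paternal allele. The region at its promoter (chr7:149846288-149847024, midpoint 454 bp from the nearest TSS) had 0.536 CPM in D0, 0.662 in D3, 0.567 in D16S+ and 0.640 in iPSCs. It lay 767 bp from a D6T- peak, and that neighbouring region was called in D3 (0.893), D6T- (1.08), D9T- (0.681), D16S+ (0.661), iPSCs (0.677) and D6 siNT (0.505) but not in D0. Because an antisense transcript covers the region, the accessible DNA cannot be assigned to Igf2 alone. In Kcnq1, a potassium channel, both intron regions had 0.441 in D0 and 0.489 in iPSCs and no other call.

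The Wnt list had a region at 4 of 31 genes (12.9%, 5.13 to 28.9), the highest share among the 12 lists, against 3.33% of protein-coding genes. These were the ligands Wnt3, Wnt7b and Wnt11 and the transcription factor Tcf7. The Wnt3 region had 0.504 in D0 and 0.489 in iPSCs, that of Wnt7b 0.441 and 0.640, and that of Tcf7 0.473 and 0.414, and none of these had a call in another library. Smad6, an inhibitory SMAD, was the only gene of 36 in TGF-beta and BMP signalling, with 0.410 in D0 and 0.489 in iPSCs alone. For Cabin1, a partner of the H3.3 chaperone HIRA, 1 region had 0.378 in D0 and 0.564 in iPSCs and a second had 0.378, 0.430 in D3 and 0.414. It was the only gene of 10 in the H3.3 list. Tead3, a TEAD transcription factor, was the only gene with a region among the 30 in the list for cytoskeleton and adhesion. Its region had 0.473 in D0, 0.695 in D3, 0.625 in D12S+, 0.708 in D16S+ and 0.489 in iPSCs. The epithelial genes (0 of 22), the AP-1 genes (0 of 11), the CTCF and cohesin genes (0 of 10) and the genes of cell cycle and senescence (0 of 22) had none. Over all lists, 15 of 301 genes (4.98%, 3.04 to 8.06) had a region, against 3.33% of protein-coding genes.

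Of the 12 strongest regions, Cbx7, Llgl2 and the exon of Pisd were at genes of known function, and 2 lay in Gm2792. Others were at Gm4981 and A530032D15Rik. The rest were nearest to the TSS of Gm15951 (2699 bp), 4930467E23Rik (16214 bp), Gm12142 (41544 bp), SNORA17 (98523 bp) and Gm17383 (111170 bp). Repeated 31-mers made up 100% of both Gm2792 windows, 73.7% at A530032D15Rik, 55.6% near 4930467E23Rik, 47.8% near Gm17383 and 46.7% at Pisd. They made up 43.0% near Gm15951, 24.4% near SNORA17, 16.3% near Gm12142, 15.2% at Gm4981 and 0% at Cbx7 and Llgl2. Of all 1240 windows, 79.0% held no repeated 31-mer. The region near Gm17383 had the highest lower signal of all, with 1.39 CPM in D0, 0.992 in D3, 0.908 in D9T-, 1.32 in iPSCs and 0.643 in D6 siNT. At Gm4981 the signal was 0.946 in D0, 1.36 in D3, 0.965 in D12S+, 1.13 in D16S+, 1.28 in iPSCs, 0.826 in D6 siNT and 0.429 in D6 siH3.3. D6T- had a peak 503 bp away. The region near SNORA17 was called in all 8 other libraries, at 0.883 in D0, 1.06 in D3, 1.74 in D9T-, 1.36 in D12S+, 0.708 in D16S+, 1.62 in iPSCs, 1.79 in D6 siNT and 1.71 in D6 siH3.3. In Llgl2, a regulator of cell polarity, the values were 0.883 in D0, 0.331 in D3, 0.681 in D12S+, 0.708 in D16S+ and 0.752 in iPSCs, with none at day 6 in any library. Of the 12, 10 were called by at least 1 of the day 6 siRNA libraries.

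At promoters of protein-coding genes, further regions were found at Recql5, a DNA helicase, with 0.694 in D0, 0.529 in D3, 0.568 in D12S+, 0.752 in iPSCs and 0.696 in D6 siH3.3. Scube3, a secreted protein, had 0.694 in D0, 0.364 in D3, 0.681 in D12S+, 1.04 in D16S+ and 0.602 in iPSCs. Lmod1, an actin regulator of smooth muscle, had 0.599 in D0, 0.959 in D3 and 0.640 in iPSCs. Ecel1 showed 0.568 in D0, 0.595 in D3, 0.681 in D12S+, 0.708 in D16S+ and 0.790 in iPSCs. Its midpoint lay 52 bp from the nearest TSS, in sequence rich in CG. Adrbk2, a kinase of G protein-coupled receptors, had 0.599 in D0 and 0.677 in iPSCs and no other call, and its nearest D6T- peak was 38255 bp away. Gpsm1 had 0.568 in D0, 0.708 in D16S+ and 1.02 in iPSCs, Plk5 had 0.568, 0.803 and 0.677 in the same libraries and 0.463 in D3. In the promoters of this paragraph the signal in D0 did not exceed 0.694 CPM. The same selection also held Cbx7 (1.01 in D0), Gm4981 (0.946) and A530032D15Rik (0.883).

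The 5 strongest regions called in D0 and iPSCs alone were in Grm4 (0.820 in D0 and 0.677 in iPSCs), Hk3 (0.662 and 0.715), Nrxn2 (0.662 and 0.865) and Tmem63c (0.788 and 0.640) and near Mfng (0.631 and 0.903). Grm4 encodes a glutamate receptor, Hk3 a hexokinase, Nrxn2 a neuronal adhesion protein and Mfng an enzyme that modifies Notch. The Grm4 region lay 29544 bp from the nearest D6T- peak, with 41 D0 peaks but 1 D6T- peak within 50 kb on each side.

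**Figure D4:**
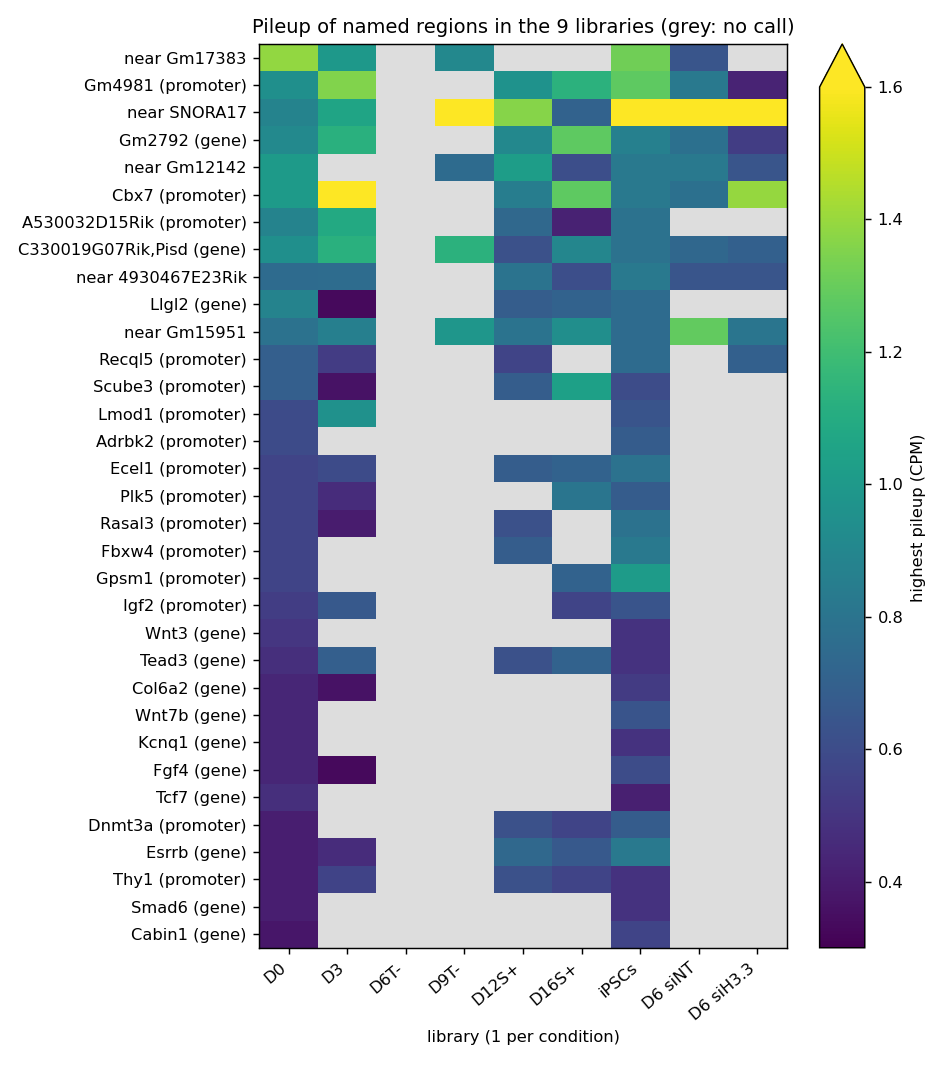
Signal of named regions. Rows are regions, columns the 9 libraries, and colour the highest pileup in CPM, with values above 1.6 in the brightest colour and grey for no call. The upper rows, the strongest regions, have calls in 5 to 8 libraries. The lower rows vary, from Wnt3 and Smad6, called in D0 and iPSCs alone, to Tead3, Esrrb and Thy1, called in 5 libraries.

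In sequence, the regions resembled all merged regions more than the shared ones in their CG content. The median ratio of observed to expected CG was 0.233, against 0.605 for the shared and 0.208 for all regions. A ratio above 0.6 was found in 6.77% of the 1240, 50.3% of the shared and 8.51% of all regions. The windows held a median of 5 CG (15 in the shared, 4 in all) and 49 TG or CA (40 and 48). Median GC content of the window was 55.2%, between that of all regions (49.7%) and the shared ones (59.0%).

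Repeated sequence was present in a small group. At least 50% of the 31-mers of the window occurred more than once in the genome in 99 regions (7.98%), against 2.49% of the shared regions, 3.73% of the D0 regions missing from D6T- and iPSCs and 8.77% of the iPSC regions missing from D0 and D6T-. D6 siNT called 44.4% of these 99 and 4.65% of the other 1141, and D6 siH3.3 called 37.4% and 4.73%. Among the 135 regions that D6 siNT or D6 siH3.3 called, 40.7% were repeated, and among the 19 called in all 8 other libraries 47.4%. The authors removed tags that mapped ambiguously, and the part of this step in these calls was not tested. Without repeated regions, 1141 remained, of which neither siRNA library called 93.0%.

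Motifs were searched on both strands of the 300 bases, and a match is a description of letters. The AP-1 motif (TGANTCA), which binds Fos and Jun factors, occurred in 7.02% (5.72 to 8.57) of the 1240 windows, 11.9% of the shared and 27.7% of all windows. In iPSC regions missing from D0 and D6T- it occurred in 7.36% (7.03 to 7.70), within the interval of the 1240, and in D0 regions missing from D6T- and iPSCs in 15.9%. The CTCF motif (CCANNAGGG), of the insulator protein, was found in 10.6%, 10.4% and 7.52%. The GC box of SP factors (GGGGCGG) occurred in 8.31%, 30.3% and 6.71%, ETS (CCGGAAGT) in 0.645%, 4.86% and 0.901% and NRF1 (GCGCNTGCG) in 1.21%, 7.93% and 1.17%. These last 3, which are typical of CG-rich promoters, were near the level of all regions. TEAD (CATTCC) was found in 18.0%, 15.7% and 20.7%, NFY (CCAAT) in 26.0%, 34.6% and 31.5% and OCT (ATGCAAAT) in 0.887%, 1.42% and 2.25%. NFY was thus the most frequent of the 15 motifs in the 1240 windows. The letters of NFY can fall within a CTCF match, while no other motif of the list contains another, and all windows had the same length.

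**Figure D5:**
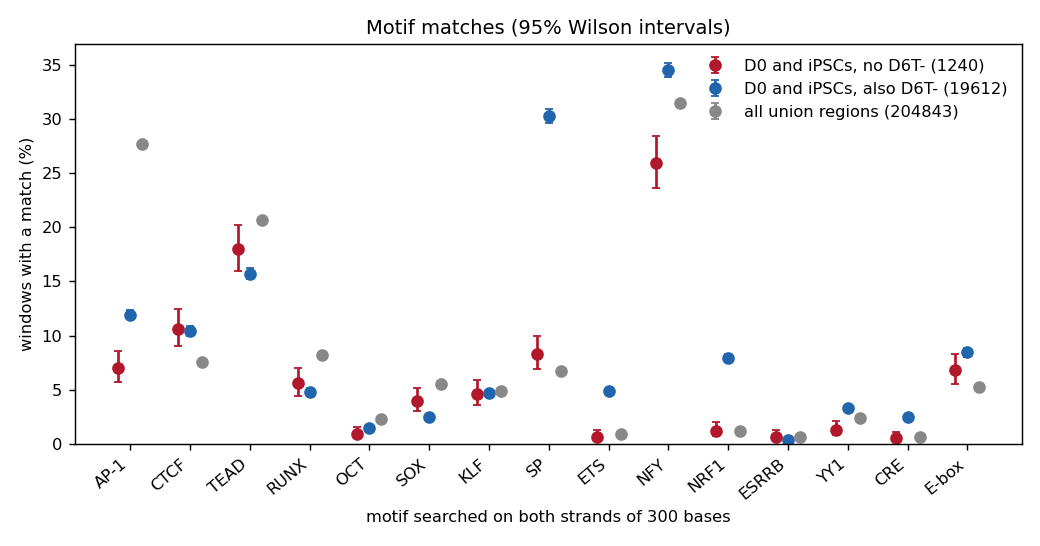
Share of windows with a motif (y axis, percent, with 95% Wilson intervals) for 15 motifs searched in 300 bases. Points show the 1240 regions, the 19612 regions that D6T- shared and all 204843 regions. The AP-1 point of the 1240 regions (7.02%) lies below both others, and the SP point (8.31%) lies near that of all regions.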

How the data were processed

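ATAC-Seq peak files of 9 libraries, 1 per condition, were used. The authors mapped the reads to mm9 with STAR, took out chrM, ambiguous reads and (with Picard) duplicates, and ran MACS2 2.1.0.20151222 for peak calling with neither control nor local background, at a q-value cutoff of 0.05, with tags extended to 200 bp. As deposited, the pileup is an unscaled signal that counts extended tags at a summit. The deposited fold enrichment is a ratio of pileup to an even background. The deposited −log10 p-value and −log10 q-value rank the peaks, and the latter ranked them in the alternatives.

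Here the pileup was divided by the tags of the library per file header (13213117 to 31714845) and given per 1000000 tags (CPM), which does not adjust for the share of tags in peaks. PCR reads are not independent molecules, so the lowest signal called per library covers counting error only. A region took its highest summit. Genes came from GENCODE vM1 (NCBIM37, 34653 genes on the chromosomes used), and sequences from the genome of the same build, counted from 1. Windows of 300 bases were centred on the stronger of the D0 and iPSC summits. In regions with neither, they were centred on the strongest summit of the time course. The 31-mers were counted over the genome. The software was Python 3.11.15, numba 0.67.0, numpy 2.4.6, pandas 2.3.3 and matplotlib 3.10.9. The functions recovered the planted answer in 10 of 10 tests on simulated data.

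With 1 library per condition no test was made. Shares are given with 95% Wilson intervals. The regions, gene lists, markers and motifs were chosen with earlier results of these data known. Named regions were the 12 with the highest lower signal, the 12 highest at protein-coding promoters, up to 3 per gene list, the 5 highest called in D0 and iPSCs alone, in all other libraries or in both siRNA libraries, and the 3 nearest to a D6T- peak on either side of the rule. The 6 sequences, the clusters, the genes with the most regions and the Jag2 locus were chosen after their values were seen. The alternatives were other sets of peaks, overlaps, margins, signal measures, promoter definitions and windows, and settings added after seeing the data left out D9T-, repeated sequence or regions with a peak in either siRNA library.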

Additional observations from a re-analysis of the deposited data

How the results depend on the processing

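The number of regions (1240) was 423 with the stronger 50% of peaks and 13 where both end points reached at least 2 times the lowest D6T- level. It lay between 850 and 1285 in the other settings, among them direct overlap of 50% (850), a margin of 500 bp (1162), no D6 siNT peak either (1143), X and Y added (1242) and, chosen after seeing the data, no D9T- in the union (1239), no repeated sequence (1141) and no peak of either siRNA library (1105). D0 and iPSC regions missing from a library with the stronger 50% of peaks and with the same number of peaks came to 3.82% and 8.50% for D3, 3.58% and 10.8% for D6T-, 31.9% and 13.8% for D9T-, 8.79% and 6.74% for D12S+, 12.5% and 8.80% for D16S+, 23.2% and 13.6% for D6 siNT, and 24.2% and 14.7% for D6 siH3.3. Calls of the regions under the stronger 50%, under the same number and among the 13 strong regions were 53.9%, 42.7% and 92.3% in D3, 7.80%, 32.1% and 38.5% in D9T-, 29.3%, 57.2% and 84.6% in D12S+, 37.1%, 60.7% and 92.3% in D16S+, 13.5%, 32.9% and 76.9% in D6 siNT, and 15.4%, 30.2% and 69.2% in D6 siH3.3. Neither siRNA library called 80.4%, 56.3% and 23.1%. Without repeated sequence the shares were 2.37% in D9T-, 18.5% in D12S+, 25.0% in D16S+, 4.65% in D6 siNT, 4.73% in D6 siH3.3 and 93.0% in neither. The promoter share was 10.6% with 1 kb upstream to 100 bp downstream, 16.5% for protein-coding genes, 22.2% with any overlap and 23.1% among the strong regions. Over whole regions AP-1 was found in 14.4%, CTCF in 19.6% and SP in 14.1%, and among the 13 strong regions CTCF in 15.4% and SP in 0%. Signal, GC, CG and repeat content moved by less than their spread. Of 93 values under another setting, 73 moved and 20 did not, and the cause was not tested. No paired analysis was possible because each condition had 1 library. For the same reason no replicate could be left out. Depth limits the calls to signals above 0.331 to 0.530 CPM, depending on the library.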
